A study of Mus musculus with 12 samples.

Results

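Heme clearance was followed through 10 genes, Hmox1, Hmox2, Blvra, Blvrb, Spic, Cd163, Slc48a1, Flvcr1, Bach1 and Nfe2l2, in the liver of neonatal mice with and without anemia. They were chosen by name, and each matched 1 entry of the 32285 genes in the count tables. Heme set free from aged red cells is toxic, and the liver clears it largely through Kupffer cells, its resident macrophages. Cd163 is the macrophage receptor that takes up hemoglobin bound to haptoglobin, and Slc48a1 (HRG1) carries heme from the phagolysosome into the cytosol. Hmox1 and Hmox2 encode the inducible and the constitutive heme oxygenase, which open the heme ring and yield iron, carbon monoxide and biliverdin, and Blvra and Blvrb encode the reductases of biliverdin and related compounds. Flvcr1 is a membrane transporter described for heme and for choline. Spic is a transcription factor of iron-recycling macrophages, Bach1 is a repressor of Hmox1 that heme releases from DNA, and Nfe2l2 (NRF2) is an activator of Hmox1 and of antioxidant genes.

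The livers came from 6 control and 6 anemic C57BL/6 pups (labelled genotype C57BL6/J, no transgene), with 1 droplet-based scRNA-seq library per mouse. Anemic pups lost 20 µL of blood per g body weight on alternate days from postnatal day 2 to day 10, which took the hematocrit to 20 to 24%, and controls received a needle stick without blood loss each day. The paper's methods place collection at day 11, and all samples carry the same batch label. Each captured mRNA molecule was counted once through its unique molecular identifier (UMI), and a level below is the CPM value of a gene, its UMIs per 1000000 UMIs, in the summed cells of 1 class in 1 mouse.

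After filtering, 206146 cells were kept, with 14184 to 21186 cells and 45751640 to 74344118 UMIs per mouse. Any 2 libraries shared 56 to 122 cell barcodes, at most 0.691% of a library. Y-linked genes marked 2 of the 6 control and 4 of the 6 anemic mice as male. Anemia 2 and anemia 3 stood apart from the other anemic mice: they held 4388 and 1963 of the 7785 monocyte-like cells of that group, and the tests of anemia against control and of its difference between classes were also made without them. Of 14 classes named from marker genes, the macrophage-like class held 19951 cells, 1215 to 2139 in a control mouse and 1111 to 2097 in an anemic one. Of 11 macrophage markers, 9 were 19.9 to 26.4 times higher in this class than in the next class, Adgre1 was 6.62 times and Csf1r 2.06 times higher. Clec4f, a Kupffer cell lectin, ranged from 2947 to 3227 CPM in the controls and from 250.0 to 3295 CPM in the anemic mice, while Timd4 ranged from 478 to 682 CPM over the 12 mice.

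Of the uptake genes, Cd163 (chr6:124304656-124330527, plus strand, GRCm38) was measured at 96.0 ± 27.8 CPM in macrophage-like cells (mean ± SD, n = 12 mice, as for every level given across classes). The next class, dendritic-like cells, had 4.01 ± 2.83 CPM, and the ranges of the 2 classes did not overlap. Slc48a1 (chr15:97778520-97792692, plus strand) stood at 127 ± 19.6 CPM in macrophage-like and 68.2 ± 10.5 CPM in erythroid-like cells, again without overlap, and at 35.2 CPM or less in each of the other 12 classes. Both uptake genes were thus highest in the macrophage-like class on this scale, Cd163 by a factor of 23.9 and Slc48a1 by a factor of 1.86 over the class that followed.

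Of the enzymes, Hmox1 (chr8:75093621-75100589, plus strand) was at 926 ± 140 CPM in macrophage-like cells, from 579 to 1141 CPM. Monocyte-like cells followed at 114 ± 22.8 CPM, 8.10 times lower, with no overlap to either side of the order. From endothelial-like cells (61.1 ± 6.05 CPM) down to pre-B-like cells (4.40 ± 1.41 CPM), each class overlapped its neighbour. Hmox2 (chr16:4726361-4766742, plus strand) was spread far more evenly: macrophage-like cells had 153 ± 19.1 CPM, pre-B-like cells 139 ± 10.1 CPM and B-like cells 118 ± 7.72 CPM, each overlapping the class before it. T-like cells followed without overlap at 90.9 ± 7.04 CPM, and erythroid-like cells had the least, 10.2 ± 3.85 CPM. The constitutive oxygenase therefore had no single leading class, unlike the inducible one.

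The reductases differed from each other. Blvra (chr2:127070665-127097084, plus strand) was highest in macrophage-like cells, at 175 ± 19.4 CPM, and stood at 77.2 ± 8.60 CPM in monocyte-like cells without overlap. Blvrb (chr7:27447978-27466144, plus strand) had a pair of high classes, macrophage-like cells at 789.9 ± 128 CPM and erythroid-like cells at 693 ± 184 CPM, whose ranges overlapped. Hepatocyte-like cells followed at 180.4 ± 35.5 CPM, below both, and NK-like cells had the least, 19.0 ± 3.70 CPM. The place of the erythroid-like class depends on the scale, because globin made up 67.1 ± 10.6% of its UMIs. With globin left out of the total, Blvrb reached 2150 CPM and Slc48a1 221 CPM in erythroid-like cells, above the macrophage-like 794 and 127 CPM.

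Flvcr1 (chr1:191005847-191026158, minus strand) was not a macrophage gene by level: monocyte-like cells had 61.0 ± 16.2 CPM, neutrophil-like 49.2 ± 8.11 CPM, T-like 40.9 ± 8.95 CPM and macrophage-like 33.5 ± 3.03 CPM, each class overlapping the next. Erythroid-like cells were lowest, at 4.01 ± 2.19 CPM.

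Of the 3 transcription factors, only Spic (chr10:88674772-88685015, minus strand) was highest in macrophage-like cells, at 195 ± 25.1 CPM against 8.24 ± 4.24 CPM in stellate-like cells, the next class, with no overlap. Bach1 (chr16:87698945-87733346, plus strand) was at 225 ± 34.9 CPM in monocyte-like, 163 ± 14.7 CPM in endothelial-like, 130.4 ± 21.6 CPM in dendritic-like and 130.2 ± 28.5 CPM in macrophage-like cells, with overlap between neighbours. Nfe2l2 (chr2:75675513-75704641, minus strand) was at 673 ± 94.6 CPM in monocyte-like cells, above the range of every other class but for the highest neutrophil-like value, 659.98 CPM, and macrophage-like cells followed at 354 ± 51.9 CPM. The repressor and the activator of Hmox1 were both highest in monocyte-like cells, the class with the second highest Hmox1.

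**Figure D1:**
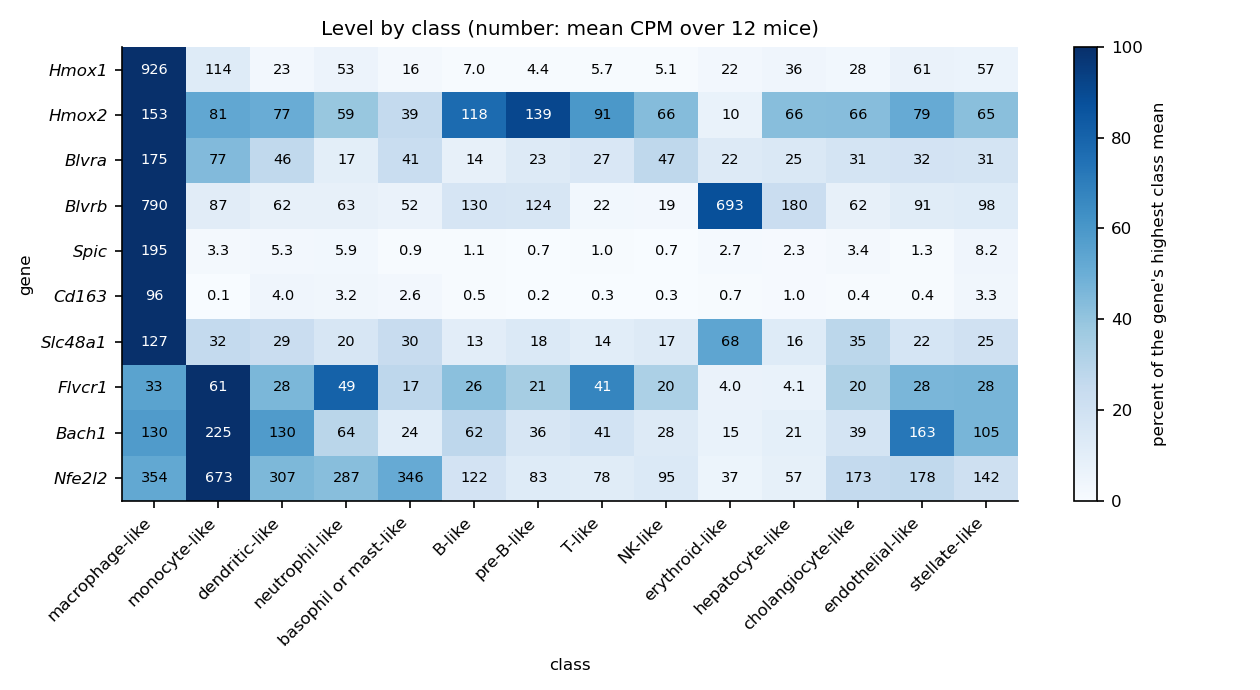
Level of the 10 genes in the 14 named classes. The number in each cell is the mean CPM over 12 mice and the colour is that mean as a percent of the gene's highest class mean. Hmox1, at 926 CPM, and 6 other genes peak in the macrophage-like column, while Flvcr1, Bach1 and Nfe2l2 peak in the monocyte-like column.

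Because CPM is relative to the UMIs of a class, it does not say how much of a transcript a class held in all. Over all kept cells, macrophage-like cells gave 84.1% of the Cd163, 82.2% of the Spic and 72.2% of the Hmox1 UMIs, and 46.1% of Blvrb, 45.3% of Blvra and 42.8% of Slc48a1. In the controls 52.7 ± 4.15% of Blvrb UMIs came from macrophage-like and 6.23 ± 2.00% from erythroid-like cells. In the anemic mice these shares were 37.7 ± 10.2% and 30.4 ± 12.7%. The erythroid-like class held 6.92 ± 4.43% of the kept cells of a control and 21.7 ± 7.17% of an anemic mouse, and the macrophage-like class 11.1 ± 1.62% and 8.36 ± 1.78%. Blvrb thus had a larger erythroid source in the anemic livers on the count of UMIs, alongside more erythroid-like cells.

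Droplets also hold free RNA. The Kupffer genes Clec4f, Vsig4, Timd4, Cd5l and Marco, summed, stood in the other 13 classes at 0.396% (pre-B-like) to 3.98% (stellate-like) of their macrophage-like level, which gives the level that carried-over macrophage RNA would produce. Spic in stellate-like cells was 8.24 CPM against 7.94 CPM from carry-over, and it was above the carry-over level in 6 of 12 mice. In dendritic-like cells Spic (5.34 against 2.80 CPM) and Cd163 (4.01 against 1.27 CPM) each exceeded it in 11 of 12 mice. For Hmox1 the carry-over level was 7.17 CPM of the 114 CPM in monocyte-like cells and 36.7 of the 56.5 CPM in stellate-like cells.

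At least 1 UMI of Blvrb was found in 81.2 ± 3.97% of macrophage-like cells, of Hmox1 in 71.9 ± 3.51%, of Nfe2l2 in 58.2 ± 4.45%, of Spic in 41.6 ± 4.84% and of Cd163 in 17.1 ± 4.15%. In T-like cells, which lack the macrophage genes, the shares were 1.15% for Hmox1, 0.169% for Spic and 0.0616% for Cd163. The median depth was 4921 and 5156 UMIs per cell in control and anemic macrophage-like cells and 1754 and 2111 in T-like cells. Thinned to 1000 UMIs per cell, which left out 2047 control and 1952 anemic macrophage-like cells, the macrophage-like shares were 50.5% for Blvrb, 46.2% for Hmox1, 26.9% for Nfe2l2, 15.3% for Spic and 7.45% for Cd163. T-like cells at that depth gave 0.547% for Hmox1, 0.0667% for Spic and 0.0299% for Cd163.

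The genes whose pattern over classes was most like those of 4 members were found by Pearson's r of mean log2(CPM + 1) over the 14 classes, among 13745 genes. These points share libraries and free RNA, and r is given as a description. Nearest to Spic were the eosinophil chemokine gene Ccl24 (0.993), the complement gene C1qc (0.992) and the Kupffer receptor gene Vsig4 (0.986). Nearest to Cd163 were Timd4 (0.980), a receptor for dying cells, Gm49101 (0.975) and Spic itself (0.975). Among the nearest to Hmox1 were the lysosomal protease gene Ctsb (0.958) and Gm29707 (0.956). Blvrb had no close match: Ube2l6 (0.745), the transferrin receptor gene Tfrc (0.744) and 1700034P13Rik (0.735) were nearest, and all 3 were highest in erythroid-like cells.

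The main comparison asked whether anemia changed the heme clearance genes of macrophages. None of the 10 genes passed the test in macrophage-like cells (edgeR, 6 against 6 mice). Over all 14342 genes tested, 3.12% passed, and at an unadjusted p under 0.05 there was 1 of the 10 genes, Slc48a1, beside 21.6% of all genes. The estimates leaned low: 9 of 10 were below 0, with a median log2 fold change of −0.16 beside 0.03 over all genes. DESeq2 called 1 of the 10, the joint voom model 2 and the fit without anemia 2 and anemia 3 called 1, each given with its gene. The joint voom model has no mouse block and counts the sums of a mouse in several classes as independent.

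Slc48a1 came closest to a change. Its level in the 6 controls ran from 120.2 over a median of 135 to 169 CPM, and in the 6 anemic mice from 107 over 112 to 117 CPM. All anemic mice were below all controls, and the anemic mice lay within a narrow band. The share of all genes whose groups separate in this way is not given here, and 21.6% of them had an unadjusted p under 0.05 (edgeR). The separation is therefore not shown to be particular to Slc48a1. The log2 fold change was −0.27 (SE 0.09, adjusted p = 0.0939). The call was made by DESeq2 (−0.26, adjusted p = 0.0386), where 7.12% of all genes passed, and by the joint voom model over all classes (−0.25, adjusted p = 0.0240), where 7.01% passed. Without anemia 2 and anemia 3 the value was −0.31 (adjusted p = 0.0669), and without macrophage-like cluster 33 it was −0.18 (adjusted p = 0.399).

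Cd163, the other uptake gene, ran from 91.3 over 102 to 131 CPM in the controls and from 29.1 over 96.5 to 126 CPM in the anemic mice. The groups overlapped, and the lowest values were those of anemia 2 (29.1 CPM) and anemia 3 (63.6 CPM). Its log2 fold change was −0.21 (SE 0.25, adjusted p = 0.655), and 0.08 without these 2 mice.

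Hmox1 ran from 889 over 991 to 1141 CPM in the controls and from 579 over 886 to 975 CPM in the anemic mice. The groups overlapped, with anemia 3 below every other mouse. The log2 fold change was −0.17 (SE 0.12, adjusted p = 0.412). Hmox2, at 157 to 186 CPM against 120.5 to 165 CPM, had the same estimate, −0.17 (SE 0.09, adjusted p = 0.293). Neither heme oxygenase gene was shown to change in macrophage-like cells.

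Blvra ran from 164 to 208 CPM in the controls and from 142 to 179.7 CPM in the anemic mice, with overlap and a log2 fold change of −0.15 (SE 0.09, adjusted p = 0.341). Blvrb was at 781 to 905 CPM in the controls. Of the anemic mice, 4 were below them all, at 625, 627, 646 and 669.9 CPM, while anemia 3 had 866 CPM and anemia 2 had 1035 CPM, the highest of all 12 mice. Over all mice the log2 fold change of Blvrb was −0.09 (SE 0.15, adjusted p = 0.753). It was called at −0.35 (SE 0.07, adjusted p = 0.0214) without anemia 2 and anemia 3, a fit in which 3.28% of all genes passed and which was added after these mice were seen to stand apart. The joint voom model, which weights libraries by quality, called it at −0.24 (adjusted p = 0.0171). Without macrophage-like cluster 33 the estimate was 0.07 (adjusted p = 0.895).

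The transcription factors and Flvcr1 did not pass either. Spic was at 194 to 217 CPM in the controls and 145 to 224 CPM in the anemic mice (log2 fold change −0.07, SE 0.13, adjusted p = 0.797). Bach1 had the estimate furthest from 0, −0.28 (SE 0.15, adjusted p = 0.309): 3 anemic mice, at 86.1, 87.0 and 88.4 CPM, were below the lowest control at 121 CPM, and the other 3, at 137 to 150.1 CPM, were within the controls. Nfe2l2 was at 310.3 to 419.9 CPM and 273 to 413 CPM (−0.06, SE 0.12, adjusted p = 0.808). Flvcr1 was the only gene with an estimate above 0, at 0.12 (SE 0.10, adjusted p = 0.510), from 30.4 to 35.2 CPM and from 28.6 to 39.0 CPM.

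**Figure D2:**
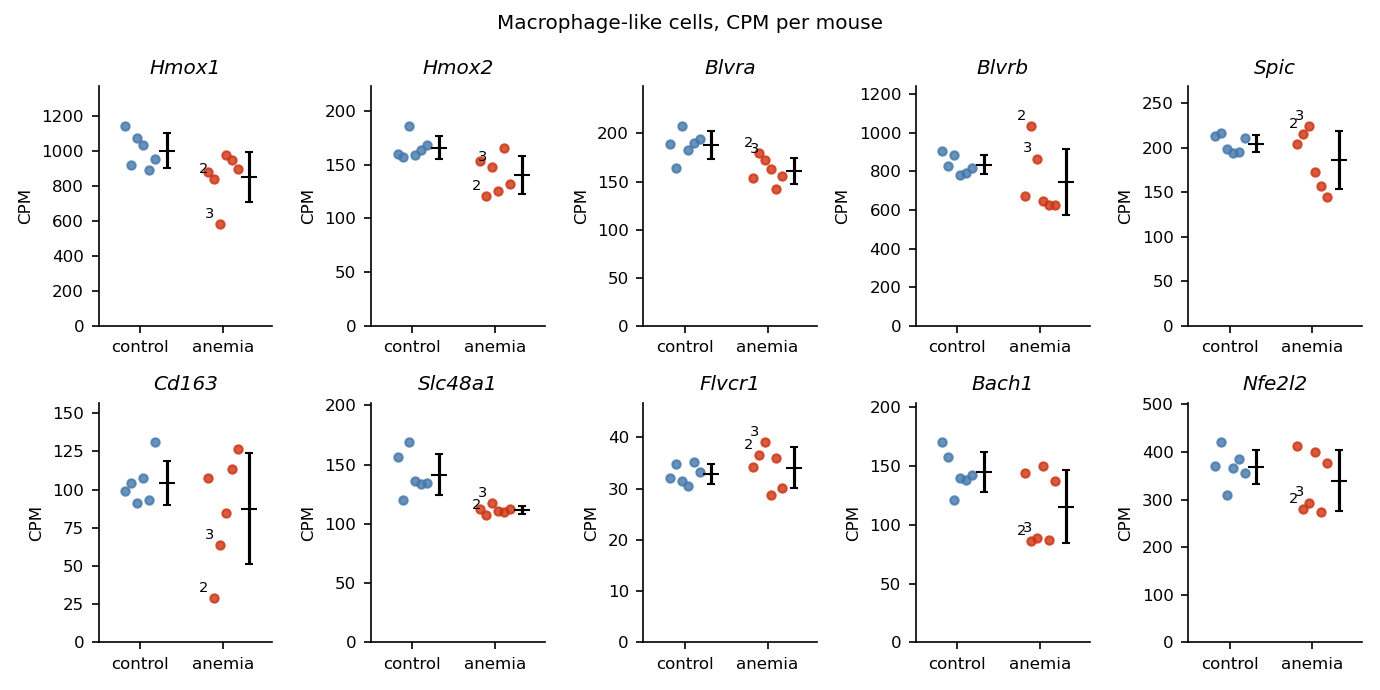
CPM of the 10 genes in the macrophage-like cells of each mouse. Points are mice, blue for 6 controls and red for 6 anemic mice, bars give the mean ± SD, and the numerals mark anemia 2 and anemia 3. Slc48a1, which was not called, is the gene of the 10 whose groups do not overlap. Blvrb, Cd163 and Hmox1 show anemia 2 or anemia 3 apart from the other anemic mice.

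Macrophage-like cells fell into 4 clusters that differed in these genes. Cluster 1 held 66.2 ± 6.14% of the macrophage-like cells of a control and 46.9 ± 22.3% of an anemic mouse, cluster 11 held 29.3 ± 5.22% and 35.0 ± 3.23%, cluster 33 held 1.90 ± 0.998% and 16.6 ± 20.8%, and cluster 50 held 2.57 ± 1.15% and 1.48 ± 1.64%. Cluster 33 reached 56.5% in 1 anemic mouse, anemia 2. As means over the 12 mice, it had little Clec4f (287 CPM, against 2768 CPM in cluster 1), less Marco (1509 against 2895 CPM) and less Timd4 (407 against 582 CPM), and it held Prg4, the lubricin gene (1157 against 0.86 CPM), which led its genes by fold with Serpinb2 and the acute-phase gene Saa3. Of its cells 29.3% were called doublets, against 6.79% of the whole class. Over its pooled cells, 1184 of 2001 of which came from anemia 2, Marco was at 5018 CPM and Timd4 at 566 CPM. The pooled cells of cluster 1 had 2665 and 570.1 CPM, so the lower Marco and Timd4 held for the means over mice only. Prg4 in cluster 33 varied between mice, from 597 to 1687 CPM in the controls and from 9.53 to 3282 CPM in the anemic mice. The clusters were made from variable genes, with the heme clearance genes left out. The differences among the clusters are given as a description and carry no test.

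Within the same mice, cluster 33 had less Hmox1 than cluster 1 (means 395 and 966 CPM, lower in 10 of 12 mice). It also had less Spic (84.1 against 208 CPM, 11 of 12 mice), Blvrb (463 against 812 CPM, 12 of 12) and Slc48a1 (72.1 against 130.5 CPM, 12 of 12). Bach1 went the other way, with 201 CPM in cluster 33 and 133 CPM in cluster 1, higher in 11 of 12 mice. Cd163 was at 117 and 98.9 CPM, higher in 7 of 12 mice. The mouse with the largest share of cluster 33, anemia 2, was also the mouse with the lowest Cd163 and the highest Blvrb in the class as a whole.

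Cluster 11 held shallow cells, with 1235 UMIs per cell against 7141 in cluster 1. It had less Bach1 (64.2 against 133 CPM), Nfe2l2 (177 against 360.2 CPM) and Spic (124 against 208 CPM), each in 12 of 12 mice, and more Blvrb (983 against 812 CPM) in 12 of 12 mice. Hmox2, at 159 and 157 CPM, was lower in 7 of 12 mice. Low transcription factor levels and high Blvrb thus went together in the shallow cluster, whose Kupffer markers (Clec4f 2533 CPM, Vsig4 1581 CPM) stood beside 2768 and 1344 CPM in cluster 1.

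**Figure D3:**
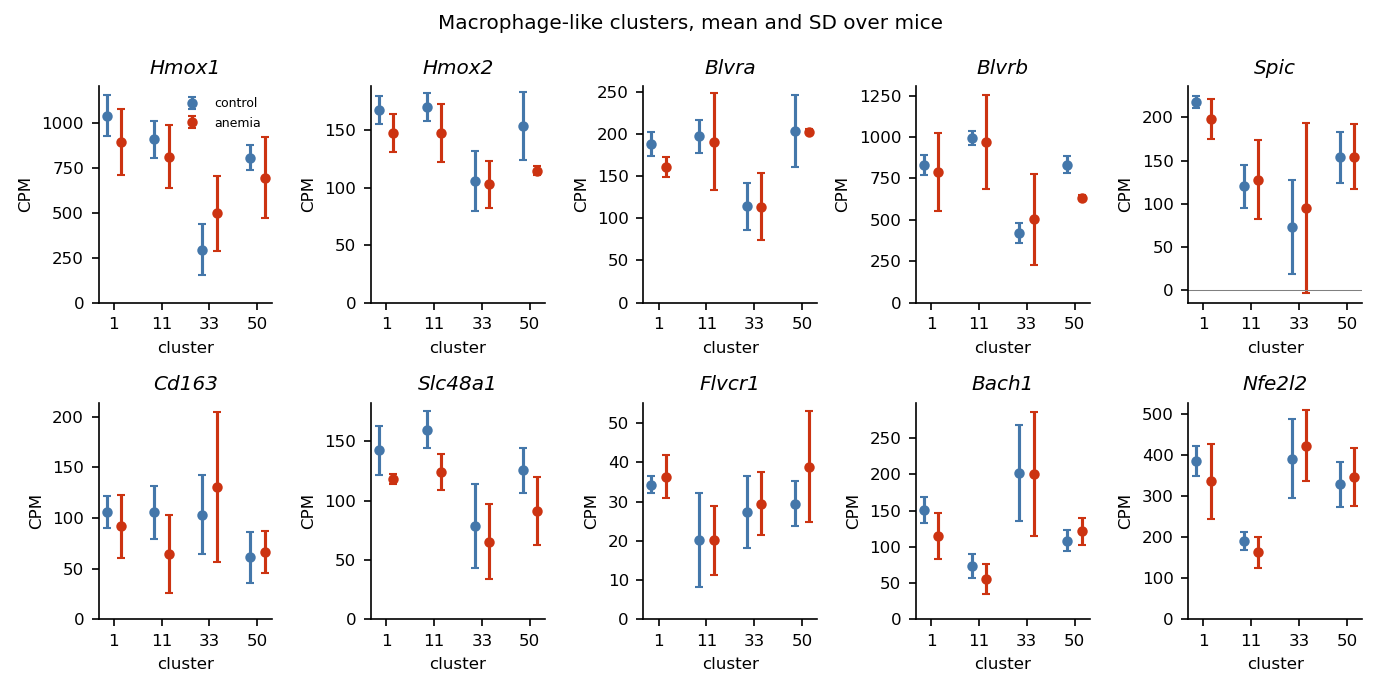
CPM of the 10 genes in the 4 macrophage-like clusters, blue for control and red for anemic mice, with points for the mean and bars for the SD over mice with at least 20 cells of the cluster (6 mice a group, but 2 anemic mice for cluster 50). Hmox1, Blvrb and Slc48a1 are lowest in cluster 33, and Bach1 and Nfe2l2 are lowest in cluster 11.

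Other genes of the pathway were read from lists chosen for this work. Of 20 genes of heme and hemoglobin scavenging and iron release, such as haptoglobin, ferroportin and ferritin, none passed among macrophage-like cells (median −0.11 on the log2 scale, beside 0.03 over all genes). The iron exporter gene Slc40a1 (ferroportin), singled out for its role after its values were known, was at 1645 to 1839 CPM in the controls and 831 to 1823 CPM in the anemic mice (−0.23, SE 0.14, adjusted p = 0.371). None of 15 genes for the uptake of dying red cells passed (median 0.07), none of 12 heme synthesis genes (median 0.08), none of 11 partners and regulators of NRF2 and BACH1 (median 0.00) and none of 11 Kupffer cell markers (median −0.11).

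Of 18 NRF2 and BACH1 targets, 1 rose and 2 fell in macrophage-like cells (median −0.03), beside 3.12% of all genes called in either direction. Gsr, glutathione reductase, was at 179 to 227 CPM in the controls and 235 to 378 CPM in the anemic mice, without overlap, and rose by 0.51 on the log2 scale (SE 0.13, adjusted p = 0.0468). Osgin1, an oxidative stress-induced growth inhibitor, was at 26.9 to 34.5 CPM and 12.7 to 22.9 CPM, without overlap, and fell by 0.66 (SE 0.13, adjusted p = 0.0167). Gclm, the modifier subunit of the first enzyme of glutathione synthesis, was at 86.3 to 111 CPM and 66.5 to 92.8 CPM and fell by 0.33 (SE 0.08, adjusted p = 0.0494). Osgin1 was called without each mouse in turn, with adjusted p up to 0.0416. Gsr lost its call without any 1 of the controls and without anemia 3 or anemia 5, with adjusted p from 0.0542 (without control 2) to 0.122 (without control 1). Gclm was called in 1 of these 12 fits, with adjusted p up to 0.108 in the others. Over 14 other alternatives Osgin1 kept its call in all, Gsr lost it in 4 (adjusted p up to 0.0801) and Gclm in 11 (adjusted p up to 0.154).

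RNA of other cell types in the macrophage-like class moved with the groups. The 12 erythroid genes summed to 961 to 6506 CPM in the controls and 3513 to 15753 CPM in the anemic mice (median log2 fold change of the 10 tested 1.41). The 8 hepatocyte genes summed to 1488 to 2353 CPM and 246 to 1332 CPM, with none called (median −0.90), and the 8 neutrophil genes to 50.1 to 94.97 CPM and 47.4 to 210.3 CPM, with none called (median 0.43). No gene of these lists was at 0 in every mouse, but the erythroid genes Epb42 (at most 0.924 CPM) and Klf1 (at most 1.04 CPM) were at 0 in some. Carried-over erythroid RNA would give 2.81 CPM of Blvrb in control and 7.33 CPM in anemic macrophage-like cells, of 835 and 745 CPM measured. Slc48a1 kept its estimate, at −0.27 (adjusted p = 0.0990), in macrophage-like cells without a UMI of 6 erythroid genes.

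In the other 13 classes, 111 of 130 pairs of gene and class were deep enough to test, and 9 passed, in 3 classes. Over all genes of these classes 8.65% of the tests passed, so 9 of 111 is close to the background. Hepatocyte-like cells gave 5 calls among the 9 genes tested there, Cd163 being too low. In that class 55.4% of all genes passed, 28.0% as higher and 27.5% as lower in anemia, so 5 of 9 is close to the background. The calls are given gene by gene below.

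Hmox1 in hepatocyte-like cells ran from 38.5 over 51.7 to 58.3 CPM in the controls and from 11.3 over 17.4 to 37.4 CPM in the anemic mice. All anemic mice were below all controls, and anemia 2 and anemia 3 (37.4 and 34.4 CPM) were the highest of the anemic mice. Over the class the gene fell by 1.03 on the log2 scale (SE 0.22, adjusted p = 0.000895), and by 1.43 without these 2 mice. Of the 11 Kupffer markers tested in these cells, 3 fell, Clec4f (−0.93, SE 0.20), Id3 (−0.86, SE 0.17) and Folr2, and Nr1h3 rose (0.72, SE 0.12), with a list median of −0.22. Of all genes in this class 27.5% fell, so 3 of 11 is at the background. Of the 8 hepatocyte genes, Apob (−0.85, SE 0.16), Alb (−0.34, SE 0.13) and Apoa1 (−0.27, SE 0.11) fell and Serpina1a rose (0.58, SE 0.10). Mertk (−1.45, SE 0.16), a receptor for dying cells, and the sinusoidal endothelial genes Stab1 (−1.43, SE 0.15) and Stab2 (−1.35, SE 0.26) fell in the same cells by more than Hmox1 did. The part of these genes' cells in the Hmox1 result was not tested. Carried-over macrophage RNA would give 11.5 of the 50.7 CPM in the controls and 7.82 of the 22.0 CPM in the anemic mice.

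Hmox2 went the other way in the same cells. It ran from 38.6 over 41.8 to 46.1 CPM in the controls and from 62.4 over 92.0 to 114 CPM in the anemic mice, without overlap, and rose by 1.36 (SE 0.12, adjusted p = 1.3e-07). Over the class as a whole, the inducible and the constitutive oxygenase gene thus moved in opposite directions, and both calls held with library sizes alone as the scaling (−1.41 and 0.98).

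The make-up of the hepatocyte-like class differed between the groups. Cluster 21 held 31.5% of its control and 12.7% of its anemic cells, cluster 16 held 16.6% and 33.3%, cluster 9 held 34.3% and 37.8%, and cluster 27 held 17.6% and 16.2%. Of the cells of cluster 21, 30.8% were called doublets, against 4.17% in cluster 16, 4.14% in cluster 9 and 12.8% in cluster 27. Hmox1 was highest in cluster 21, with 75.2 ± 14.3 CPM for the controls and 55.0 ± 33.8 CPM for the anemic mice (mean ± SD, n = 6 each), and at most 28.4 CPM on average in the other clusters. Within each of the 4 clusters the Hmox1 ranges of the groups overlapped. The anemic mean was below the control mean in cluster 21, in cluster 9 (16.7 against 28.4 CPM) and in cluster 16 (9.69 against 17.2 CPM). In cluster 27 the anemic mean (13.2 CPM) was above the control mean (11.6 CPM). Hmox2 was higher on average in the anemic mice in all 4 clusters, such as 144 ± 15.7 against 99.3 ± 18.9 CPM in cluster 16, with overlap in each. The Hmox1 fall was thus measured for the class, and a separation of the groups was not seen inside any of its clusters. Clusters were found with variable genes, without the heme clearance genes. The levels within clusters are given as a description, and the part of the make-up in the class results was not tested.

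Bach1, also highest in cluster 21 (41.1 ± 4.86 CPM in control mice), fell over the class by 0.64 (SE 0.19, adjusted p = 0.00732), from 22.1 to 30.5 CPM in the controls to 8.85 to 15.6 CPM in 5 anemic mice and 27.4 CPM in anemia 3, which lay within the controls. Blvra rose by 0.55 (SE 0.14, adjusted p = 0.00241) and Slc48a1 by 0.38 (SE 0.15, adjusted p = 0.0350), with overlap between the groups in both. Levels within clusters are plain CPM, without the scaling factors of the class test, so their direction is not on the scale of these estimates. In CPM the anemic mean of Blvra was below the control mean in all 4 clusters, such as 45.3 against 51.1 CPM in cluster 16. With library sizes alone the class estimate of Blvra was 0.17 and not called. Bach1 was lower on average in 2 of the 4 clusters, and Slc48a1 in cluster 21 only, with overlap in each. The class calls of Blvra and Slc48a1 depended on the processing. Blvra lost its call in 3 of 11 alternatives, namely library sizes alone, at most 10% mitochondrial UMIs (0.22, adjusted p = 0.236) and doublets left out (0.34, adjusted p = 0.0647), and Slc48a1 in 7 of 11, DESeq2 among them (adjusted p = 0.0829). Library sizes alone moved the median of all genes in this class by −0.38, and gave Blvra 0.17 (adjusted p = 0.331) and Slc48a1 0.00 (adjusted p = 0.997), with 22.2% of the called genes higher in anemia in place of 50.5%. Slc48a1 also lost its call without any 1 of 8 mice, with adjusted p up to 0.126. Blvrb, at 203 to 225 CPM and 137 to 191 CPM, did not overlap between the groups in CPM, yet was not called (−0.19, SE 0.09, adjusted p = 0.0934). It was called as lower in 6 of 11 alternatives, among them DESeq2 (−0.22, adjusted p = 0.0216), doublets left out (−0.48, adjusted p = 0.00030) and library sizes alone (−0.57, adjusted p = 4.12e-05), fits in which 52.8%, 49.1% and 60.8% of all genes passed. Library sizes alone also called Flvcr1 (−0.86) and Nfe2l2 (−0.50), and Spic was called without anemia 2 and anemia 3 (adjusted p = 0.0399) and without anemia 3 alone (−0.95, adjusted p = 0.0354). Erythroid RNA in hepatocyte-like cells summed to 1650 to 7858 CPM in the controls and 8795 to 28809 CPM in the anemic mice, and its part in these results was not tested.

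**Figure D4:**
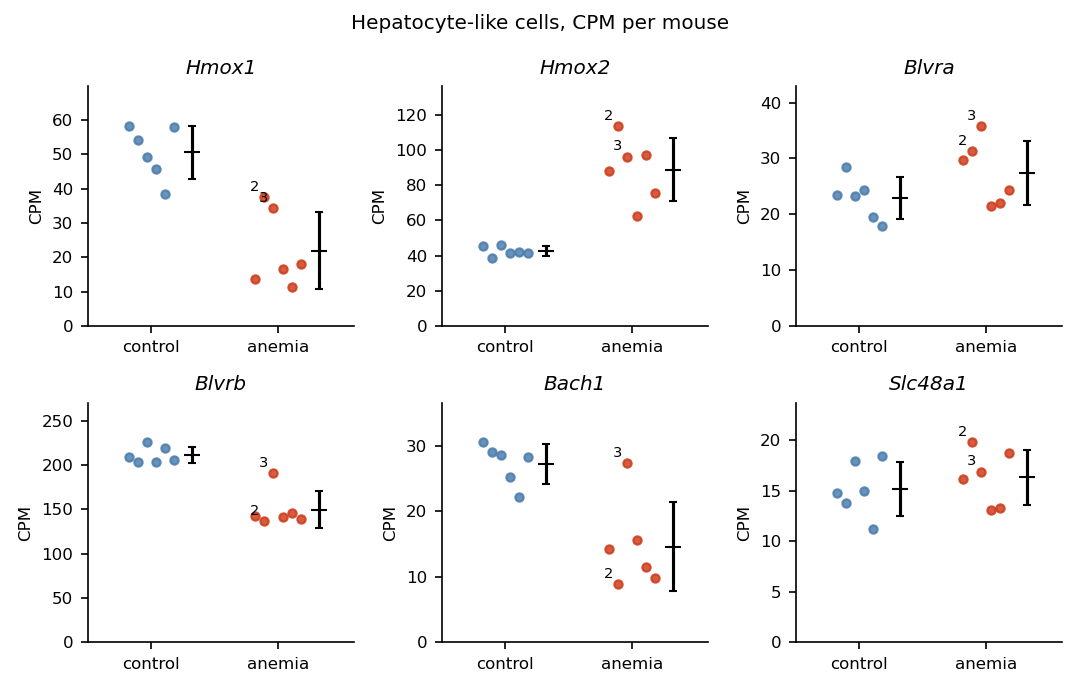
CPM of 6 of the genes in the hepatocyte-like cells of each mouse, blue for controls and red for anemic mice, with mean ± SD bars and numerals at anemia 2 and anemia 3. Every anemic point lies below the control points for Hmox1 and above them for Hmox2, and anemia 3 sits with the controls for Bach1.

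Among the lists, 8 of the 20 scavenging and iron genes rose and 3 fell in hepatocyte-like cells (median 0.03), where 28.0% of all genes rose and 27.5% fell, so that 11 of 20 called is at the background. The ferritin chain genes Fth1 (1.66, SE 0.13) and Ftl1 (1.26, SE 0.12) and the haptoglobin gene Hp (1.01, SE 0.23) rose the most. Flvcr2, a relative of Flvcr1, fell by 1.19 (SE 0.25) and Abcg2, a transporter that exports porphyrins, by 0.93 (SE 0.13). Of 12 heme synthesis genes 8 rose and 1 fell (median 0.43), with Alas2, the erythroid form of the first enzyme, at 1.55 (SE 0.20) and Alas1, the form of other tissues, at 0.70 (SE 0.15). Of 18 NRF2 and BACH1 targets 7 rose and 3 fell (median 0.21), which is also at the background of 55.4%. Alas2 is also one of the erythroid genes whose sum is given above.

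In endothelial-like cells, 2 of 10 genes passed, where 18.4% of all genes did (8.43% higher, 9.94% lower in anemia). Nfe2l2 ran from 147 over 160.2 to 173 CPM in the controls and from 177 over 198 to 206 CPM in the anemic mice, without overlap, and rose by 0.41 (SE 0.06, adjusted p = 0.000473). This call held without each mouse in turn and without anemia 2 and anemia 3. The class changed in make-up, with cluster 3 at 33.5% of control and 49.2% of anemic cells and cluster 7 at 39.7% and 16.6%. Within cluster 3 Nfe2l2 was at 135 to 158 CPM in the controls and 183 to 207 CPM in the anemic mice, without overlap, and in the other 4 clusters the groups overlapped, with 156 ± 8.11 and 158 ± 15.9 CPM in cluster 7. Flvcr1 was at 30.1 to 35.3 CPM and 18.8 to 30.2 CPM and fell by 0.32 (SE 0.10, adjusted p = 0.0435). That call was lost without any 1 of 8 mice and in 4 of 11 alternatives, among them the fit without anemia 2 and anemia 3 (adjusted p = 0.102). Its anemic mean was below the control mean in all 5 clusters of the class, with overlap in each. Hmox1, at 58.3 ± 3.30 CPM and 63.8 ± 7.17 CPM, was not called (0.25, SE 0.08, adjusted p = 0.0523). It was called by DESeq2 (adjusted p = 0.0322, with 21.6% of all genes), at Leiden resolution 1 (0.0386, 18.1%), with doublets left out (0.0367, 17.6%) and without anemia 1 (0.0350, 16.9%). Bach1 was called in the joint voom model alone (0.18, adjusted p = 0.0366, with 28.8% of all genes), and Hmox2 without control 3 alone (0.28, adjusted p = 0.0497, with 22.4%). Of the 18 NRF2 and BACH1 targets 4 rose in these cells, Gclc, Gclm, Sqstm1 and Tkt, and none fell (median 0.21).

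In stellate-like cells, 2 of 10 genes passed, where 13.9% of all genes did (7.60% higher, 6.28% lower). Hmox2 ran from 68.5 over 73.4 to 75.6 CPM in the controls and from 48.6 over 57.3 to 63.0 CPM in the anemic mice, without overlap, and fell by 0.28 (SE 0.08, adjusted p = 0.0359). This call was lost without any 1 of 7 mice (adjusted p up to 0.0808), with a replicate block (adjusted p = 0.0646) and with sex as a covariate (adjusted p = 0.0942). Nfe2l2 was at 118 to 144 CPM and 129 to 178 CPM and rose by 0.32 (SE 0.09, adjusted p = 0.0227). The Nfe2l2 call was lost with library sizes alone (adjusted p = 0.0676), with no filter on low counts (adjusted p = 0.0614) and without control 5 (adjusted p = 0.0550). In cluster 28, with 57.2% of this class in the controls and 30.5% in the anemic mice, Nfe2l2 did not overlap (132 to 159 and 192 to 242 CPM), and in cluster 23 it did, while Hmox2 overlapped in both. In this class 60.7% of the cells were called doublets. Without them Hmox2 fell by 0.85 (adjusted p = 0.00128) and Nfe2l2 was not called (0.22, adjusted p = 0.364).

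**Figure D5:**
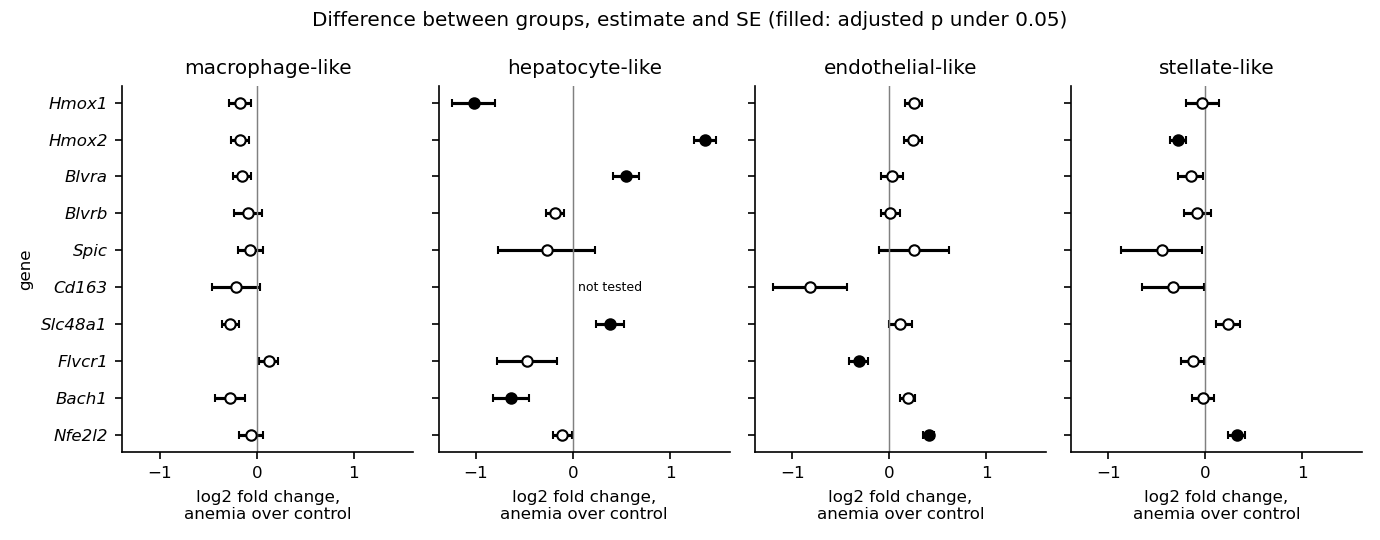
Log2 fold change (anemia over control) of the 10 genes with its SE in 4 classes, filled where the adjusted p is under 0.05. No marker is filled in macrophage-like cells, and in hepatocyte-like cells Hmox1 (−1.03) and Hmox2 (1.36) lie on opposite sides of 0.

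None of the genes tested passed in the remaining 10 classes with the main settings, and calls under other settings are given after the shares of all genes. The share of all genes called there was 4.03% in B-like, 1.54% in pre-B-like, 0.947% in monocyte-like, 0.628% in NK-like, 0.513% in T-like, 0.462% in neutrophil-like, 0.424% in erythroid-like, 0.349% in dendritic-like, 0.131% in basophil or mast-like and 0.0309% in cholangiocyte-like cells. At an unadjusted p under 0.05 there were 2 genes each in monocyte-like and neutrophil-like cells, 1 each in B-like, T-like, basophil or mast-like, dendritic-like and pre-B-like cells, beside 6.31% to 20.2% of all genes in these classes, and none in the other 3 classes. In monocyte-like cells Blvrb was at 44.8 to 87.9 CPM in the controls and at 39.8 to 53.2 CPM in 4 anemic mice, with 321 CPM in anemia 2 and 151 CPM in anemia 3 (log2 fold change 0.96, SE 0.48, adjusted p = 0.335). These 2 mice also had the most Blvrb of the 6 anemic mice in macrophage-like cells. In erythroid-like cells Blvrb was at 475 to 1117 CPM and 438 to 823 CPM (0.36, SE 0.19, adjusted p = 0.526), and the joint voom model called it (0.51, SE 0.11, adjusted p = 0.000483), where 8.10% of all genes passed.

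In B-like cells Blvrb, at 143 ± 13.2 CPM in the controls and 117 ± 14.8 CPM in the anemic mice, was not called (−0.28, SE 0.09, adjusted p = 0.0830). It was called with the replicate block (adjusted p = 0.0447, with 5.01% of all genes), with no filter on low counts (0.0445, 3.35%), without anemia 2 (0.0324, 2.77%) and without anemia 2 and anemia 3 (−0.39, adjusted p = 0.0273, with 1.62%). In pre-B-like cells, at 135 ± 14.0 CPM and 112 ± 15.2 CPM, it was not called either (−0.30, SE 0.09, adjusted p = 0.0951), but passed with no filter on low counts (0.00782, 1.73%) and without anemia 2 (0.0291, 1.30%). Cd163 passed in basophil or mast-like cells at Leiden resolution 1 (−2.24, adjusted p = 0.0180, with 0.258% of all genes), while the main settings gave it 2 UMIs in this class over all mice.

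Summed over all kept cells, in which fewer cells of a class and less RNA per cell cannot be told apart, none of the 10 genes passed, while 6.92% of all genes did, and 3 of the 10 had an unadjusted p under 0.05, beside 23.5% of all genes. Without anemia 2 and anemia 3, Blvra (−0.31, adjusted p = 0.0105) and Spic (−0.59, adjusted p = 0.0269) passed, in a fit in which 13.5% of all genes did. With library sizes alone, which moved the median of all genes by −0.24, Cd163 passed (−0.67, adjusted p = 0.0284), where 23.7% of all genes did.

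Whether anemia acted differently in macrophage-like cells than in another class was tested in 1 model over all classes with the mouse as a block (limma). Against monocyte-like cells 0 of 10 genes differed (1.61% of all genes), with 3 at an unadjusted p under 0.05, beside 14.6% of all genes. Against endothelial-like cells 2 differed (8.04%), against hepatocyte-like cells 5 (38.4%) and against erythroid-like cells 2 (4.56%). The counts were the same without anemia 2 and anemia 3. For Hmox2 the effect in macrophage-like cells was −0.15, 1.43 below that in hepatocyte-like cells (adjusted p = 4.1e-25) and 0.29 below that in endothelial-like cells (adjusted p = 0.00986). For Hmox1 the macrophage-like effect was −0.10, which is 1.15 above the hepatocyte-like one (adjusted p = 3.53e-05). For Nfe2l2 it was 0.34 below the endothelial-like one (adjusted p = 0.00242). Both heme oxygenase genes thus differed in response between the macrophage-like and hepatocyte-like classes, in opposite directions, and with the shifts in cluster make-up given above. The same model was refitted with library sizes alone, an alternative added after the data were seen. The differences of Blvra (−0.69) and Slc48a1 (−0.62) from hepatocyte-like cells were then not called (−0.35, adjusted p = 0.0601, and −0.29, adjusted p = 0.0962). Those of Hmox1 (1.47), Hmox2 (−1.11) and Bach1 (0.94) were, and 3 further genes were, Flvcr1, Nfe2l2 and Blvrb, so that 6 of 10 passed beside 44.8% of all genes. Against endothelial-like cells the same number, 2, passed (9.19% of all genes), and against monocyte-like cells 0 (1.68%).

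Against erythroid-like cells, Blvrb differed by −0.75 (adjusted p = 2.15e-06) and Slc48a1 by −0.49 (adjusted p = 0.0283). The erythroid-like effects in this model were 0.52 for Blvrb and 0.24 for Slc48a1. In the edgeR fits of this class, library sizes alone moved the median of all genes by −0.32. With library sizes alone Blvrb differed by −0.64 (adjusted p = 0.00238) and Slc48a1 was not called (−0.22, adjusted p = 0.464), in a fit in which 1.73% of all genes passed. The erythroid-like means on the CPM scale were 689.9 and 697 CPM for Blvrb and 70.6 and 65.8 CPM for Slc48a1 in control and anemic mice. This class too changed in make-up, with cluster 5 at 17.1% of control and 36.0% of anemic cells and cluster 15 at 33.5% and 11.4%. Within each of its 5 clusters the groups overlapped in both genes. In CPM the anemic mean of Slc48a1 was below the control mean in clusters 2, 5 (67.9 against 90.5 CPM), 15 and 24 and above it in cluster 32. That of Blvrb was below in clusters 2 and 15 and above in clusters 5, 24 and 32. The part of the make-up in these differences was not tested.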

How the data were processed

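Single-cell 3′ libraries (10x Genomics) were made from the livers of 12 mice. The authors deposited raw UMI counts per gene and barcode for each library, made with Cell Ranger (7.0.0 per the file headers) on mm10, and the submitters' processing notes also name Seurat. Whether introns were counted is not given in the sources used here.

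Barcodes were kept if they held between 500 and 50000 UMIs, no more than 50% of them mitochondrial. Counts were log-normalised, and 2000 variable genes, 20 principal components, 20 neighbours and Leiden clustering at resolution 2 gave 58 clusters. The 10 genes and the mitochondrial genes were kept out of the variable genes and out of the naming of clusters. The software was Python 3.11.15, scanpy 1.11.5, leidenalg 0.10.2, igraph 0.11.9, numpy 2.4.6, scipy 1.17.1, pandas 2.3.3, scikit-learn 1.9.0 and matplotlib 3.10.9. A cluster was named "X-like" when at least 3 markers of 1 class were raised, with a name margin of 0.2. After the data were seen, 2 conditions were added: a cluster stayed unnamed if another class had as many markers among its top 10 genes, or if over 70% of its cells were called doublets. They left 13 clusters unnamed (4.84% of control and 4.31% of anemic cells), of 18 unnamed in all (6.14% and 5.21%). Doublets were called from simulated neighbours (50 neighbours, 0.8% per 1000 cells) and kept.

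UMIs were summed per mouse and class (at least 20 cells, and genes averaging 5 UMIs or more per mouse) and tested with edgeR 4.0.16 (quasi-likelihood, TMM, two-sided, R 4.3.3), with Benjamini-Hochberg adjustment over all genes of the class and a threshold of 0.05. Every log2 fold change is anemia over control. Differences between classes came from limma 3.58.1 (voom with quality weights, mouse as a block). On simulated counts of 14190 genes for the macrophage-like comparison, 74 of 100 genes changed by 1 on the log2 scale and 96 of 100 changed by 2 were recovered, with 6 false calls. Smaller changes were not simulated. The recovery of changes the size of the 10 genes' macrophage-like estimates, −0.28 to 0.12, is therefore not known. The alternatives were DESeq2 1.42.0, RLE factors, library sizes alone, no filter on low counts, a replicate block, sex as a covariate, each mouse left out, at most 10% mitochondrial UMIs, doublets left out, the joint voom model, Leiden resolution 1 and other choices of macrophage-like cells. Each mouse is 1 library, so p-values measure the spread between mice. The joint voom model is an exception. It has no mouse block, and the sums of a mouse in several classes count in it as independent.

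Levels within the clusters of a class, in CPM without TMM scaling, were added after the data were seen, as a description with no test. The 10 genes and all lists were chosen with earlier results of these data known. The genes were described in every class. Of each list, up to 3 called genes per direction with the largest change and a mean of at least 10 CPM were named in macrophage-like cells, and the same rule was extended to hepatocyte-like cells after their values were seen, as were genes named in counts of 5 or fewer. Some genes that these rules select are not reported here. Gene positions were read from the GENCODE M21 annotation (GRCm38, the build also called mm10).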

Additional observations from a re-analysis of the deposited data

Results flagged for a closer look

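Of 38 groups of 6 mice examined for a mouse far from the others, 2 had one, and chance alone gives about 1 in 20 groups. Hmox1 in the macrophage-like cells of anemia 3 was at 579 CPM, where the other 5 anemic mice had 836 to 975 CPM. Bach1 in the hepatocyte-like cells of the same mouse was at 27.4 CPM, where the other 5 had 8.85 to 15.6 CPM.

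The effect of anemia differed between macrophage-like cells and another class in 9 of 40 comparisons tested (limma, adjusted over all genes, macrophage-like minus the other class on the log2 scale). Of all genes, 38.4% differed against hepatocyte-like, 8.04% against endothelial-like, 4.56% against erythroid-like and 1.61% against monocyte-like cells. The cluster make-up of the hepatocyte-like, endothelial-like and erythroid-like classes also shifted, as given above, and its part was not tested. Against hepatocyte-like cells the differences were −0.69 for Blvra (adjusted p = 5.96e-05), 1.15 for Hmox1 (adjusted p = 3.53e-05), −0.62 for Slc48a1 (adjusted p = 0.00334), −1.43 for Hmox2 (adjusted p = 4.1e-25) and 0.60 for Bach1 (adjusted p = 0.0118). With library sizes alone the differences of Blvra (−0.35, adjusted p = 0.0601) and Slc48a1 (−0.29, adjusted p = 0.0962) were not called. Against endothelial-like cells they were −0.34 for Nfe2l2 (adjusted p = 0.00242) and −0.29 for Hmox2 (adjusted p = 0.00986). Against erythroid-like cells they were −0.75 for Blvrb (adjusted p = 2.15e-06) and −0.49 for Slc48a1 (adjusted p = 0.0283), the latter −0.22 (adjusted p = 0.464) with library sizes alone.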

How the results depend on the processing

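In macrophage-like cells none of the 10 genes was called, against 1 by DESeq2, 2 in the joint voom model and 1 without anemia 2 and anemia 3. The count of all genes called, 447, became 1020 with DESeq2, 1034 in the joint voom model, 294 with doublets left out and 229 without cluster 33, and ran from 108 (without control 1) to 537 (without anemia 4) with each mouse left out. Among the 10 genes the estimate changed sign for Blvrb (0.0713 without cluster 33), Cd163 (0.0754), Flvcr1 (−0.0018) and Nfe2l2 (0.0185, all 3 without anemia 2 and anemia 3), and for Nfe2l2 in the joint voom model (0.0468). With each mouse left out, Spic ran from −0.14 to 0.0077 and Nfe2l2 from −0.12 to 0.0069. In the other classes 9 pairs were called, 7 to 11 over 11 alternatives and 5 (without control 5) to 10 with each mouse left out, and not always the same pairs. Over all kept cells none was called, against 1 with library sizes alone and 2 without anemia 2 and anemia 3. Against erythroid-like cells 2 genes differed from macrophage-like cells, against 1 with library sizes alone. The cause was not tested. The joint voom model was not run for all kept cells, and the rule on Kupffer markers kept all 4 macrophage-like clusters, so that it gave the main values.

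The labels do not say whether the shared replicate numbers stand for litters. Same-numbered mice correlated at −0.04 to 0.27 in macrophage-like cells, over 0.1 in 4 of 6 pairs, and 3 of 6 numbers matched best with their own. The replicate block called 0 of the 10 genes in macrophage-like cells and 555 of all genes there, and 8 pairs in the other classes, among them Blvrb in B-like cells, which was not called without the block.

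Depth limits the share of cells with a UMI. Thinned to 1000 UMIs per cell, it was 46.2% for Hmox1, 13.8% for Hmox2, 15.7% for Blvra, 50.5% for Blvrb, 15.3% for Spic, 7.45% for Cd163, 11.2% for Slc48a1, 3.23% for Flvcr1, 11.1% for Bach1 and 26.9% for Nfe2l2.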

Other observations

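Hepatocyte-like cells also differed in genes for the uptake of dying cells. Of 13 tested, 9 fell in anemia and none rose (median −0.57 on the log2 scale), led by Mertk (−1.45, SE 0.16), a receptor for dying cells, and the scavenger receptor genes Stab1 (−1.43, SE 0.15) and Stab2 (−1.35, SE 0.26), which are known from sinusoidal endothelium. In that class 27.5% of all genes were called lower. Cluster 21 of the class, with 30.8% of its cells called doublets, held 31.5% of its control and 12.7% of its anemic cells. The part of this make-up was not tested. In endothelial-like cells 5 of 13 genes of the same list rose and 3 fell (median 0.21), where 8.43% of all genes rose and 9.94% fell.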
